A study of Mus musculus with 14 samples.

Results

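The interferon-stimulated genes described here are 36 genes that cells switch on when interferon reaches them. They were taken by gene name from the deposited table of 54955 gene names or unnamed IDs, and all 36 were found, each as 1 row. Values are in TPM, a share of the transcripts of a library scaled by transcript length. The table covers adipose tissue of C57BL/6 mice at week 21 after birth, with 7 libraries labelled wild type (WT, replicates 3 to 9) and 7 labelled as Dectin-1 knockout (KO, replicates 1 to 7). Dectin-1, encoded by Clec7a, is a receptor for fungal β-glucans on myeloid cells, and the comparison asks what changes in fat when it is missing. The labels name no treatment, no fat depot and no knockout allele.

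Interferons are secreted proteins that signal through surface receptors and JAK kinases to STAT transcription factors. Type I interferons (the alpha and beta forms) drive a complex that includes STAT2 and IRF9 and binds the interferon-stimulated response element (ISRE). Type II interferon (interferon gamma, made mainly by T and NK cells) acts largely through the gamma-activated site (GAS). The members were put in 4 classes: 10 type I-leaning genes (Ifit, Oas, Oasl and Mx), 9 type II-leaning genes (Gbp, the Irg genes Igtp, Irgm1, Irgm2 and Iigp1, and Cxcl9), 9 regulators and sensors, and 8 other effectors. The classes lean and are not exclusive, since many of these genes answer to both kinds of interferon.

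The promoters of several members show these elements, and the stretches below place both classes side by side. RefSeq promoter sequences (GRCm38.p6) were matched for 27 of 36 members. The 250 bases before each start were searched for the ISRE letters GAAANNGAAA, on both strands, and for the GAS letters TTCNNNGAA, which read the same on both strands. Capitals mark the matches. The first 4 stretches, from type I-leaning genes and Isg15, were chosen to show the ISRE letters without GAS letters, single in Oas3 and repeated in the others:
Ifit1 (chr19:34640770-34640828, + strand): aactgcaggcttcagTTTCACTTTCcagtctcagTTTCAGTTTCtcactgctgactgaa
Ifit3 (chr19:34583358-34583431, + strand): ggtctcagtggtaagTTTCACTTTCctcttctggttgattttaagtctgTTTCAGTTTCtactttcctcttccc
Oas3 (chr5:120777710-120777749, - strand): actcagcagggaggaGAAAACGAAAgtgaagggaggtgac
Isg15 (chr4:156200860-156200911, - strand): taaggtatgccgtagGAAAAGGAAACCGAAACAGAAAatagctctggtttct

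Other type I-leaning genes differed: Oas1a had both kinds of letters, Ifit2 had GAS letters alone, and Oasl1 and Oasl2 had neither. Among the type II-leaning genes, Gbp7, Igtp and Irgm2 had both GAS and ISRE letters, while Gbp2, Gbp3 and Irgm1 had ISRE letters alone. Cxcl9 had neither, and among the regulators and sensors neither did Irf7, Irf9, Ifih1 and Trim25. The next stretches were chosen to show both kinds of letters together and ISRE letters alone. The regulator Irf1, which interferon gamma is known to induce, had the GAS letters alone:
Gbp2 (chr3:142620589-142620628, + strand): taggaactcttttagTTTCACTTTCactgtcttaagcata
Gbp7 (chr3:142530215-142530307, + strand): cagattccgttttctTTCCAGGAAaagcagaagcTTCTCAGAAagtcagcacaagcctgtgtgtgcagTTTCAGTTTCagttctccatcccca
Igtp (chr11:58199496-58199546, + strand): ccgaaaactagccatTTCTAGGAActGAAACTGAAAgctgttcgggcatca
Irgm2 (chr11:58214887-58214937, + strand): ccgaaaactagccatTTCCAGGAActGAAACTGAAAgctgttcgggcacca
Irf1 (chr11:53769909-53769947, + strand): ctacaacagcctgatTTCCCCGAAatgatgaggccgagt

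ISRE letters were in 15 of the 27 members with a promoter entry, against 3.46% of the 27025 genes in the table. GAS letters were in 7 of 27, against 8.13%. Both were found in 3 of 7 type II-leaning and 1 of 7 type I-leaning genes with an entry, against 0.459% of all genes. The letters did not part the classes: ISRE letters were in 6 of 7 type II-leaning and 4 of 7 type I-leaning genes, and stood without GAS letters in 3 of 7 of each class. The 2 stretches of Igtp and Irgm2, which are related genes, were identical at 49 of 51 bases, so they are not separate examples. A match is a description of the letters in this window and shows no binding.

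Clec7a itself was read in all 14 libraries, at 4.02, 6.33 and 10.5 TPM (lowest, median and highest) in the KO-labelled libraries and at 4.10, 12.5 and 18.9 TPM in WT. The groups overlapped (log2 fold change -0.48 ± 0.33 SE, limma adjusted p = 0.59; exact permutation p = 0.20). A value per gene cannot show whether the targeted exons were read, so each direction below compares the KO-labelled libraries with those labelled WT. The 8 adipocyte markers summed to 13911 TPM or more in each library. KO replicate 7 and WT replicates 4 and 7 stand apart: the B-cell gene Cd79a was at 0.62 to 1.52 TPM in them and at 177 to 720 TPM in the other 11. Siglech, which marks the plasmacytoid dendritic cells that make much type I interferon, was at 0.70 to 2.11 TPM in these 3 and at 5.70 to 22.4 TPM in the others. Counts and medians over the members and over several lists are given with and without them. Values of single genes are from all 14 libraries unless stated.

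All 36 members reached the minimum for testing (1 TPM in 7 libraries), and 32 reached 1 TPM in all 14. Mean levels over the 14 libraries ran from 167 TPM for Bst2, the tetherin that holds budding virions at the cell surface, to 1.78 TPM for Ifi44. Irf1 (80.0 TPM), Irf7 (54.3 TPM), Ifi35 (48.6 TPM) and Gbp2 (40.4 TPM) came next after Bst2. At the low end stood Oas3 (2.37 TPM), Mx2 (2.56 TPM) and Rsad2 (3.33 TPM), the last of which encodes viperin. The interferons themselves were listed at or near 0: Ifna1, Ifna2, Ifna4, Ifnl2 and Ifnl3 were listed at 0 in all 14 libraries, and Ifnb1 at 0 in all but KO replicate 5, where it was at 0.10 TPM. Ifng, the type II interferon, was at 0.20, 0.65 and 1.28 TPM in the KO-labelled libraries and at 0, 0.60 and 2.37 TPM in WT, with its highest value in WT replicate 7.

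KO-labelled libraries had lower values for 33 of 36 members. The median log2 fold change was -0.26 against 0.04 over the 14719 genes tested, of which 45.4% had lower values. No member passed the test: limma called 0 of 36 at an adjusted p under 0.05, against 0.0204% of all genes, and the smallest adjusted p was 0.16 (Ifit3). At an unadjusted p under 0.05, 10 of 36 members were lower and 0 higher, against 6.74% lower and 4.67% higher of all genes. For 0 of 36 members were the groups free of overlap, against 0.211% of all genes in the lower direction. The members were chosen with earlier results of these data known, so the counts describe them and test nothing. Each log2 fold change is the KO-labelled mean minus the WT mean of log2(TPM + 1), so that a low gene shows a smaller difference than its TPM ratio would. In whole tissue, fewer cells of a type and less RNA per cell cannot be told apart.

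**Figure D1:**
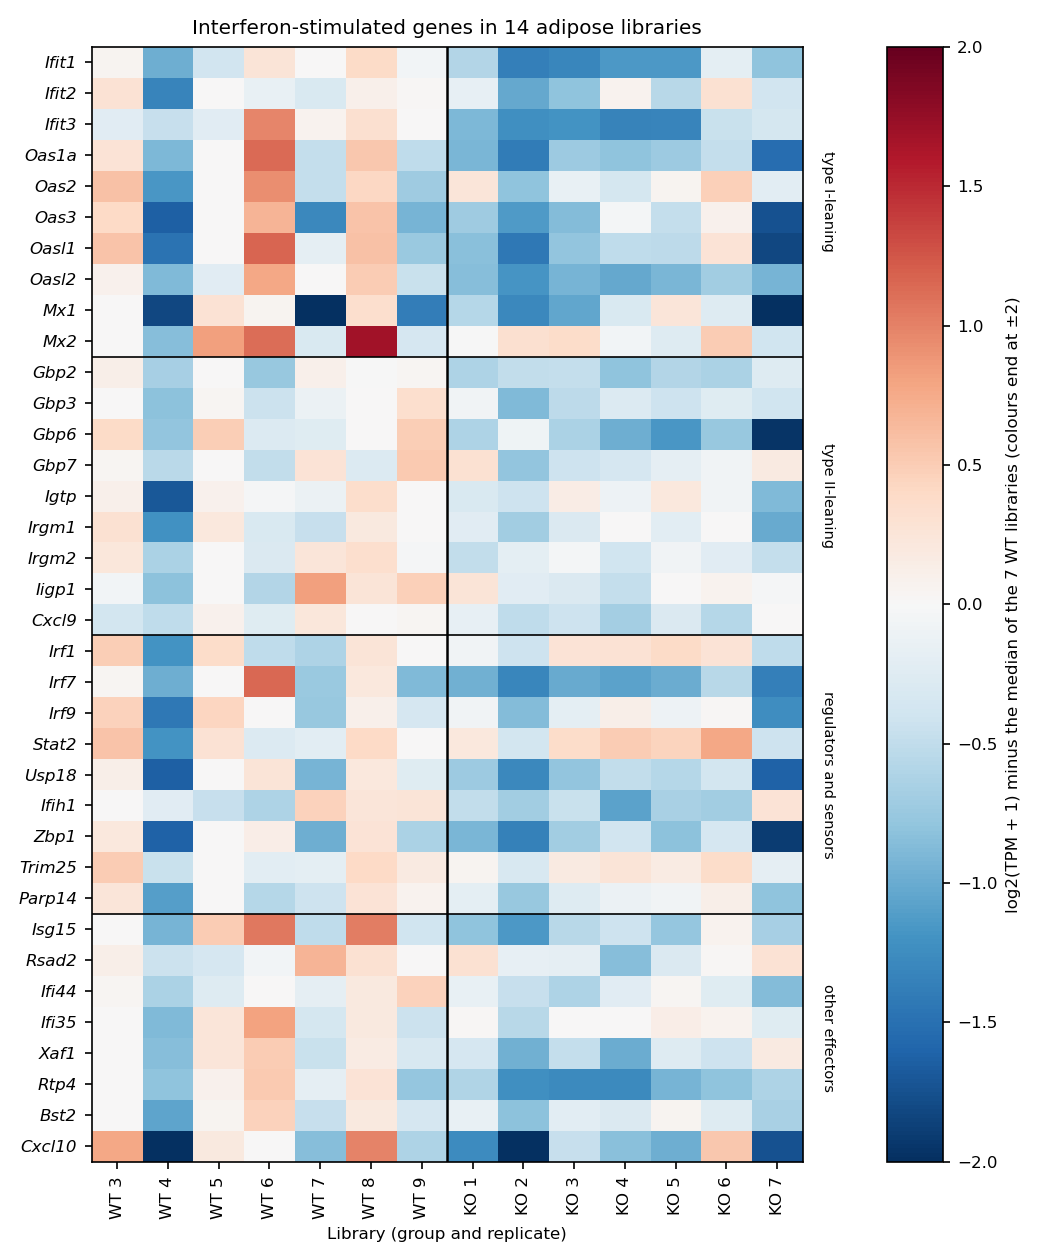
Each cell gives log2(TPM + 1) of a member (rows, by class) in a library (columns, WT left and KO-labelled right) minus the median of the 7 WT libraries, with blue for lower and red for higher values. WT replicate 4 is low in nearly every row, WT replicate 6 is red in many type I-leaning rows, and the KO-labelled columns are mostly blue, most evenly in Ifit3, Oasl2, Irf7 and Rtp4.

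Values of the type I-leaning genes were lower in the KO-labelled libraries for 10 of 10, with a median log2 fold change of -0.59. The count fell to 9 of 10 without KO replicate 2 or 7, or without WT replicate 3, 5 or 6. Without WT replicate 8 it was 8 of 10. Ifit genes encode proteins that bind foreign RNA ends and block its translation. Ifit3 (ENSMUSG00000074896) was at 17.3, 19.2 and 35.4 TPM in the KO-labelled libraries and at 32.7, 45.3 and 90.04 TPM in WT. Of the WT values, 6 exceeded the highest KO-labelled value, and only WT replicate 4 fell within the KO-labelled range. The log2 fold change was -1.03 ± 0.23 (SE; limma adjusted p = 0.16, not past the threshold; exact permutation p = 0.0017). Ifit1 was at 2.04, 2.53 and 5.82 TPM against 2.98, 6.82 and 9.23 TPM (log2 fold change -0.83 ± 0.23, limma adjusted p = 0.22). Ifit2 showed less of this, at 2.89, 5.08 and 8.81 TPM against 2.18, 6.91 and 8.65 TPM, with a log2 fold change of -0.17 ± 0.26. In the 11 libraries with B-cell transcripts, Ifit2 was at -0.41 and Ifit3 at -1.24.

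Oas genes encode synthetases of 2-5A, the messenger that activates the ribonuclease RNase L, and Oasl proteins are their relatives. Oasl2 (ENSMUSG00000029561) was nearly flat among the KO-labelled libraries, at 7.49, 9.04 and 10.8 TPM, and wide among WT, at 9.34, 18.2 and 31.8 TPM. Of the WT libraries, 6 lay above every KO-labelled one, and the log2 fold change was -0.91 ± 0.21 (limma adjusted p = 0.18; exact permutation p = 0.0017). Oas1a was at 5.49, 9.60 and 12.4 TPM against 9.01, 17.6 and 40.0 TPM (log2 fold change -0.95 ± 0.28, limma adjusted p = 0.24). Oas2 overlapped fully in its middle range, at 1.72, 3.28 and 5.65 TPM against 1.12, 3.76 and 8.06 TPM. Its log2 fold change was -0.04 ± 0.31 (-0.33 in the 11 libraries with B-cell transcripts). Oas3 and Oasl1 had values of -0.38 ± 0.40 and -0.79 ± 0.39. Mx1 and Mx2, dynamin-like antiviral GTPases that are defective in C57BL/6 and many other laboratory strains, had values of -0.14 ± 0.51 and -0.24 ± 0.35, with wide spread in both groups.

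Some members share sequence with neighbours, which bears on how far their values are their own. Of the 50-base words in Ifit3 transcripts (GENCODE M21), 51.2% also occur in Ifit3b, and 57.6% of those of Oas1a occur in other genes, chiefly Oas1g. Both copies had lower values in the same direction: Ifit3b was at 3.14, 4.34 and 10.5 TPM against 6.94, 11.8 and 17.1 TPM, and Oas1g at 1.28, 2.32 and 3.82 TPM against 1.80, 5.42 and 10.8 TPM. Summed with its copy, Ifit3 had a log2 fold change of -1.05 and Oas1a of -0.97. Gbp6 differed in this respect. It shares 70.7% of its words with other genes, 65% with the model Gm43302, and summed with Gm43302 and Gbp10 its log2 fold change went from -0.90 to -0.37. These sums were chosen after the values were seen.

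Type II-leaning genes had lower values in 9 of 9, with a smaller median log2 fold change of -0.25. Guanylate-binding proteins (Gbp) and immunity-related GTPases (Irg) attack the vacuoles of intracellular microbes. Gbp2 (ENSMUSG00000028270), the most abundant of the class, was at 28.7, 33.6 and 42.2 TPM in the KO-labelled libraries and at 29.8, 50.9 and 55.0 TPM in WT. Above all KO-labelled libraries lay 5 of WT, while WT replicates 4 and 6 lay among them (log2 fold change -0.39 ± 0.16, limma adjusted p = 0.39; exact permutation p = 0.033). Gbp6 was at 1.13, 3.90 and 6.81 TPM against 3.83, 7.32 and 10.8 TPM (log2 fold change -0.90 ± 0.27, limma adjusted p = 0.25), with the limit on shared sequence given above. Gbp3 and Gbp7 had log2 fold changes of -0.26 ± 0.17 and -0.12 ± 0.20.

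Cxcl9, the T-cell chemokine most closely tied to interferon gamma, was at 13.8, 16.8 and 22.7 TPM in the KO-labelled libraries and at 15.7, 22.7 and 26.8 TPM in WT. Its groups overlapped over much of their range (log2 fold change -0.27 ± 0.14, limma adjusted p = 0.49; exact permutation p = 0.078). Irgm2 was at 14.6, 17.9 and 20.5 TPM against 13.2, 21.0 and 26.8 TPM (log2 fold change -0.25 ± 0.15, limma adjusted p = 0.55). The other 3 Irg genes were closer to no difference, with -0.01 ± 0.27 for Igtp, -0.16 ± 0.23 for Irgm1 and -0.11 ± 0.23 for Iigp1. For Igtp the 95% interval ran from -0.60 to 0.57, so these libraries bound a difference only loosely. The count of 9 of 9 fell to 8 of 9 with TPM rescaled without mitochondrial genes and in 9 of the 14 fits that left out 1 library.

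**Figure D2:**
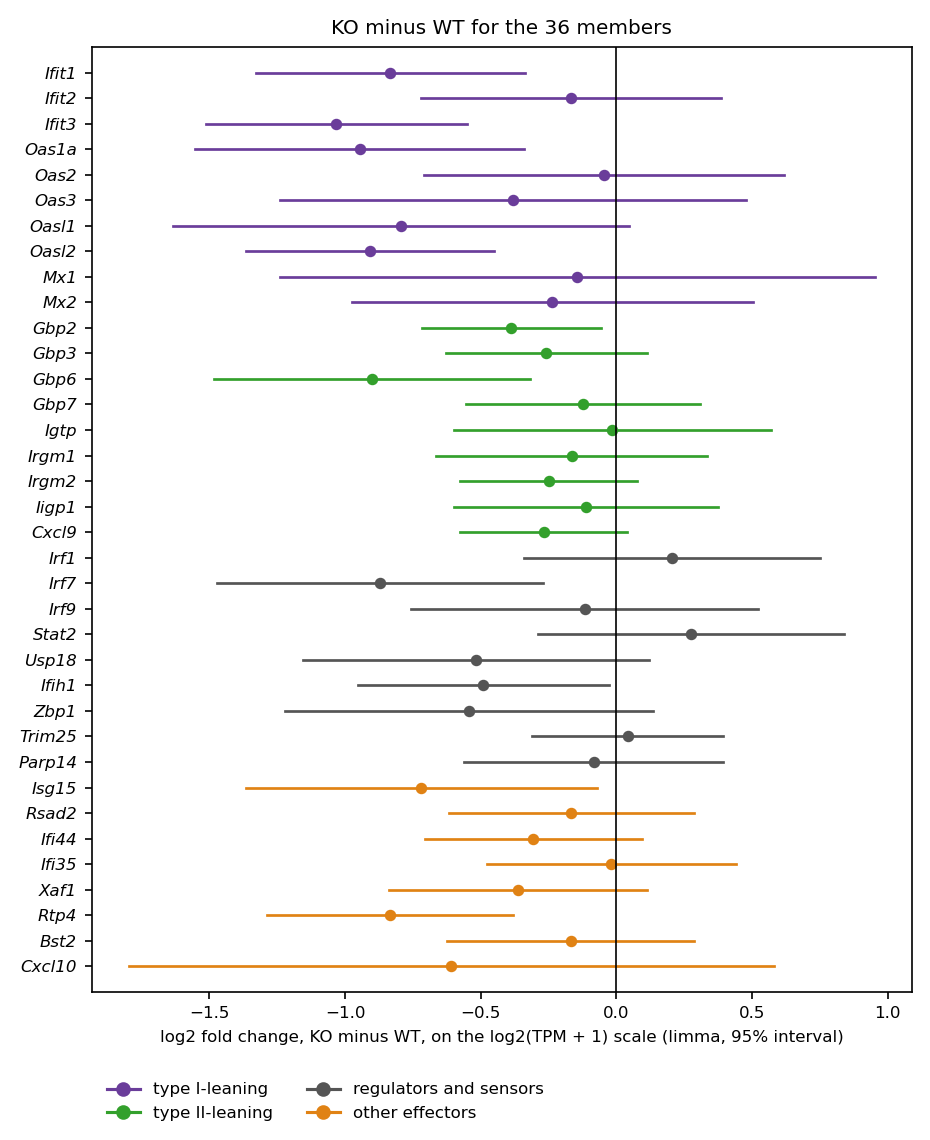
The log2 fold change (KO minus WT, points) of each of the 36 members is drawn with its 95% limma interval (bars) and coloured by class. The type I-leaning genes spread from -1.03 (Ifit3) to -0.04 (Oas2), while 8 of the 9 type II-leaning genes lie between -0.39 and -0.01, with Gbp6 at -0.90.

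Set side by side, the median of the type I-leaning genes was lower than that of the type II-leaning genes by 0.34 on the log2 scale. The gap depended on single libraries. It was -0.12 without WT replicate 6 and -0.20 without KO replicate 7, and -0.49 in the 11 libraries with B-cell transcripts. The classes also ordered the WT libraries differently. Of the 36 members, 13 had their highest value of all 14 libraries in WT replicate 6, among them 6 of 10 type I-leaning and 0 of 9 type II-leaning genes, against 6.22% of all genes. WT replicate 6 lay below the WT median in 9 of 9 type II-leaning genes. Its Irf7 was at 162 TPM and its Ifit3 at 90.04 TPM, while its Gbp2, at 29.8 TPM without scaling, was the lowest of the WT group. Genes in general also read low in WT replicate 6: its median ratio to the geometric mean of each gene was 0.77, the lowest of the 14 libraries. The 9 of 9 and the Gbp2 value were not set apart from that shift.

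Means of log2(TPM + 1) over each class show the same by library. Type I-leaning means ran from 2.13 to 3.17 in the KO-labelled libraries and from 2.06 (WT replicate 4) to 3.90 (WT replicate 6) in WT. Type II-leaning means were held within 3.91 to 4.23 in the KO-labelled libraries, and 5 of 7 WT libraries lay above that range, at 4.53 to 4.65. WT replicate 9 paired the highest type II-leaning mean (4.65) with a type I-leaning mean of 2.70, close to that of KO replicate 1 (2.68). The difference between the class means (type I minus type II) was -1.51 ± 0.28 (SD, n = 7) in the KO-labelled libraries and -1.24 ± 0.62 in WT, so the class gap between groups was smaller than the spread among WT libraries.

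**Figure D3:**
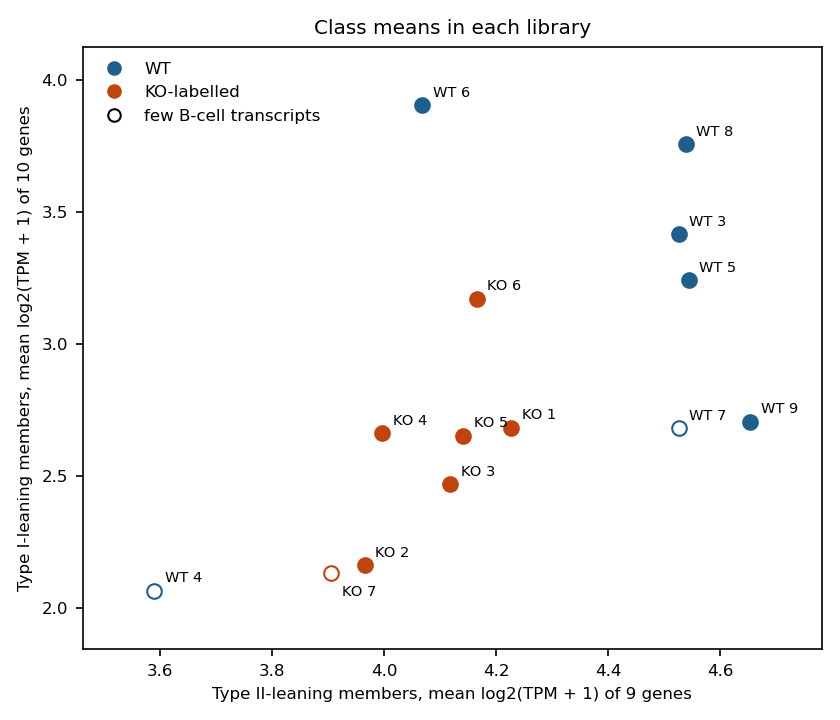
Each point is a library, placed by its mean log2(TPM + 1) over the 9 type II-leaning genes (x axis) and the 10 type I-leaning genes (y axis), with open symbols for the 3 libraries with few B-cell transcripts. The KO-labelled libraries lie between 3.91 and 4.23 on the x axis, 5 WT libraries lie to the right of them, WT 6 lies above them and WT 4 lies lowest on both axes.

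Among the regulators and sensors, 6 of 9 members had lower values (median log2 fold change -0.12), and the 3 with higher values were Irf1, Stat2 and Trim25. Irf7, the factor that amplifies type I interferon and its targets, was at 27.5, 35.5 and 48.8 TPM in the KO-labelled libraries and at 36.5, 72.6 and 162 TPM in WT. Of the KO-labelled libraries, 5 lay below the lowest WT library, and the log2 fold change was -0.87 ± 0.28 (limma adjusted p = 0.28; exact permutation p = 0.011). The subunits that carry the type I signal did not share this pattern in the 14 libraries. Stat2 was at 10.7, 19.2 and 25.7 TPM against 5.85, 14.7 and 22.3 TPM (log2 fold change 0.28 ± 0.26, limma adjusted p = 0.68), and Irf9 had a log2 fold change of -0.12 ± 0.30. In the 11 libraries with B-cell transcripts, the values were 0.13 for Stat2, -0.31 for Irf9 and -1.09 for Irf7. Irf1, the factor that both interferons induce early, was at 56.0, 97.0 and 104 TPM against 34.2, 79.9 and 113 TPM (log2 fold change 0.21 ± 0.26, limma adjusted p = 0.74), and in the 11 libraries with B-cell transcripts its log2 fold change was 0.00.

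Usp18, the enzyme that removes ISG15 from proteins and damps the type I receptor, was at 6.29, 12.6 and 16.5 TPM against 6.27, 21.5 and 26.0 TPM (log2 fold change -0.52 ± 0.30, limma adjusted p = 0.52). All KO-labelled libraries were exceeded by 5 of WT, and not by WT replicates 4 and 7. The RNA sensor Ifih1 (MDA5) was at 3.09, 4.51 and 9.46 TPM against 4.62, 7.63 and 10.9 TPM (log2 fold change -0.49 ± 0.22, limma adjusted p = 0.42). Its highest value in each group was in replicate 7, which in both groups held few B-cell transcripts. Zbp1, a sensor of Z-form nucleic acids, was at 10.6, 23.3 and 33.02 TPM against 13.1, 42.0 and 50.8 TPM (log2 fold change -0.54 ± 0.32, limma adjusted p = 0.52). Parp14 and Trim25 had log2 fold changes of -0.08 ± 0.22 and 0.04 ± 0.17.

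The other effectors had lower values in 8 of 8, with a median log2 fold change of -0.33. Rtp4, a chaperone of membrane receptors that interferon induces, was at 14.9, 19.0 and 24.2 TPM in the KO-labelled libraries and at 20.8, 37.2 and 54.0 TPM in WT. Every KO-labelled library lay below 5 of WT, and WT replicates 4 and 9 lay within their range (log2 fold change -0.83 ± 0.21, limma adjusted p = 0.21; exact permutation p = 0.0064). Isg15, the ubiquitin-like modifier, was at 15.8, 22.6 and 38.1 TPM against 18.7, 36.4 and 76.9 TPM (log2 fold change -0.72 ± 0.30, limma adjusted p = 0.41; exact permutation p = 0.052). Its high WT values came from replicates 5, 6 and 8.

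Cxcl10, a chemokine that shares its receptor with Cxcl9, varied most among the effectors, at 3.15, 7.59 and 23.5 TPM against 1.12, 15.9 and 32.7 TPM (log2 fold change -0.61 ± 0.56, limma adjusted p = 0.67). Bst2 was at 107, 160.3 and 198 TPM against 91.5, 191 and 264 TPM (log2 fold change -0.17 ± 0.21, limma adjusted p = 0.74), and with quantile normalization its value turned to 0.01. Xaf1, a proapoptotic protein, had a log2 fold change of -0.36 ± 0.22 and Ifi44 one of -0.31 ± 0.19. Ifi35 and Rsad2 had values of -0.02 ± 0.22 and -0.17 ± 0.21. In the 11 libraries with B-cell transcripts, Cxcl10 was at -1.11, Xaf1 at -0.69, Ifi35 at -0.21 and Rsad2 at -0.20.

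**Figure D4:**
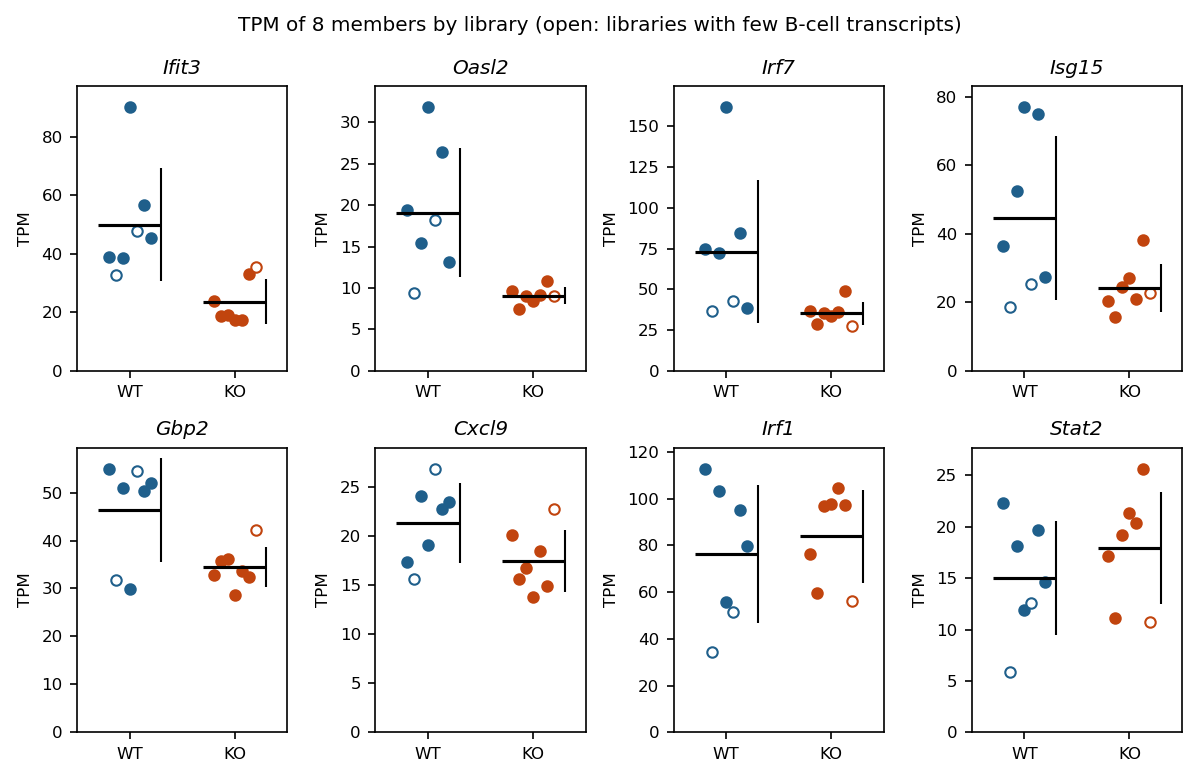
TPM of 8 members is plotted for each of the 7 WT and 7 KO-labelled libraries (points, with open symbols for the 3 libraries with few B-cell transcripts), with the group mean (horizontal line) and SD (vertical line). For Ifit3 and Oasl2, 6 of 7 WT points lie above all KO-labelled points, while for Irf1 and Stat2 the groups cover much the same range.

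Spread within the groups also differed. The SD of log2(TPM + 1) was larger in WT than in the KO-labelled libraries for 33 of 36 members, against 65.9% of all genes. For Oasl2 it was 0.56 in WT and 0.15 in the KO-labelled libraries, and for Irf7 0.76 and 0.26. The median SD of the type I-leaning genes was 0.73 in WT and 0.42 in the KO-labelled libraries. The count of 33 rested on WT replicate 4. Without that library it was 19 of 36 (58.5% of all genes), without WT replicate 6 it was 33 of 36 (58.1%), and without both it was 16 of 36 (42.6%). In the 11 libraries with B-cell transcripts it was 22 of 36 (61.1%).

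Lower values were about as frequent in the 11 libraries with B-cell transcripts. There, 34 of 36 members had lower values, against 7601 of the 14719 genes tested. The median log2 fold change was -0.81 for type I-leaning and -0.32 for type II-leaning genes, against -0.01 over all genes. In the same libraries, 18 of 36 members were at an unadjusted p under 0.05, against 7.09% of all genes in the lower direction, while limma called 0. WT replicate 4 alone moved this count: it was 19 without that library and 8 to 12 when any other 1 library was left out. WT replicate 4 lay below the WT median in 36 of 36 members and held the lowest value of all 14 libraries in 16. Genes in general also read low in it, with a median ratio to the geometric mean of each gene of 0.85. These counts were not set apart from that shift, and their share over all genes was not taken.

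Marker lists of other cells went in both directions. The 10 macrophage markers summed to 573 to 1782 TPM in the KO-labelled libraries and to 403 to 2309 TPM in WT, none of them at 0 in any library, and 8 of 10 had lower values in the KO-labelled libraries (median log2 fold change -0.28). With the macrophage score as a covariate the median was -0.39 for type I-leaning and -0.12 for type II-leaning genes, and 24 of 36 members were lower, among them 7 of 10 type I-leaning and 6 of 9 type II-leaning genes. Ifit3, Oasl2 and Rtp4 then passed the test, at log2 fold changes of -1.05, -0.84 and -0.81 (limma adjusted p = 0.028, 0.039 and 0.047). The same fit called 1043 of 14719 genes, 817 of them higher, and moved the median of all genes to 0.12. With the B-cell score as a covariate, Oas1a and Usp18 passed, each at a limma adjusted p of 0.049, with log2 fold changes of -1.12 and -0.75, in a fit that called 29 of 14719 genes, 21 of them lower. Plasmacytoid dendritic cell markers, a list that includes Bst2, summed to 179 to 695 TPM against 109 to 577 TPM, with 4 of 6 higher, and only Ccr9 was at 0 in any library. NK-cell markers summed to 13.8 to 24.3 TPM against 1.84 to 35.3 TPM, with 5 of 5 tested markers higher and Klrb1c at 0 in some library. The 8 adipocyte markers, none at 0, summed to 13911 to 60756 TPM against 32937 to 63387 TPM, with 7 of 8 lower. Adipose progenitor markers were lower for 5 of 6 (351 to 960.3 TPM against 465 to 1715 TPM). Without the same 3 libraries, macrophage markers were lower for 9 of 10, adipocyte markers for 7 of 8 and progenitor markers for 5 of 6. The NK-cell markers changed direction there, with 5 of 5 lower and a median log2 fold change of -0.13, against 0.17 in all 14 libraries. Plasmacytoid dendritic cell markers were lower for 1 of 6 there. All 8 B-cell and all 8 T-cell markers had higher values, with median log2 fold changes of 1.18 and 1.04. These medians were 0.31 and 0.20 in the 11 libraries with B-cell transcripts, with 1 of 8 markers lower in each list. Skeletal muscle markers had lower values for 6 of 6 (median log2 fold change -1.73), and for 2 of 6 in those 11 libraries (median 0.17). They summed to 17.2 to 6593 TPM in the KO-labelled libraries and to 26.2 to 20907 TPM in WT, with the highest sum in WT replicate 4. The part of adipocyte, progenitor, T-cell and muscle transcripts in the result was not tested.

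Other genes of the pathway, from lists set by role in the pathway, did not share one direction. Of 5 receptor subunits tested, 3 had lower and 2 higher values. Ifnar2 was at 52.7, 74.9 and 98.6 TPM against 76.9, 88.6 and 104 TPM (log2 fold change -0.23 ± 0.14), and Ifnar1, the partner chain of the type I receptor, had a value of 0.20 ± 0.18. The chains of the type II receptor, Ifngr1 and Ifngr2, had values of -0.03 ± 0.17 and 0.23 ± 0.22. Of 24 genes of signal transduction and sensing, 6 had lower and 18 higher values (median 0.16). Among them were Dhx58, which encodes the sensor LGP2, at -0.40 ± 0.26, the nuclease Trex1 at -0.39 ± 0.30, the kinase Tbk1 at 0.28 ± 0.19 and the factor Irf3 at 0.22 ± 0.16. In the 11 libraries with B-cell transcripts this list split evenly, 12 lower of 24, with a median of 0.00. Of all 14719 genes, 7601 were lower there.

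Of 35 further interferon-stimulated genes tested, 19 had lower and 16 higher values, with a median log2 fold change of 0.00. This list moved in the 11 libraries with B-cell transcripts, where 26 of 35 had lower values and the median was -0.20. Over all genes these were 7601 of 14719 and -0.01. None passed the test by limma. At an unadjusted p under 0.05, 10 of 35 were lower and 0 higher, against 6.74% lower and 4.67% higher of all genes. Those with the smallest p were Ifit3b (-1.002 ± 0.25), Isg20, an RNA exonuclease (-0.45 ± 0.11), Ifitm3, which blocks virus entry (-0.83 ± 0.21), and Dtx3l, a ubiquitin ligase (-0.79 ± 0.25), with adjusted p-values of 0.21, 0.21, 0.21 and 0.27. Isg20 was at 15.3, 17.1 and 19.4 TPM against 19.5, 21.5 and 30.4 TPM. It was the 1 of 64 tested genes of the pathway lists whose groups did not overlap, against 0.211% of all genes in the lower direction. The other Gbp genes of this list, named after their values were seen, had values on both sides of 0. Gbp4, Gbp5, Gbp8 and Gbp9 had log2 fold changes of 0.52 ± 0.32, 0.11 ± 0.32, 0.72 ± 0.59 and 0.46 ± 0.31, Gbp10 had 0.01 ± 0.27 and Gbp2b had -0.68 ± 0.34. In the 11 libraries with B-cell transcripts, Gbp5 was at 0.00 and Gbp2b at -1.01. The Ifit and Oas genes of this list also lay on both sides of 0. Over the 14 libraries, Ifit1bl1, Oas1b and Oas1c had 0.21 ± 0.64, 0.27 ± 0.33 and 0.14 ± 0.24, while Oas1g had -0.85 ± 0.33 and Ifit3b the value above. Ifit1bl1, Oas1b and Oas1c were at -0.30, -0.06 and 0.09 in the 11 libraries.

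**Figure D5:**
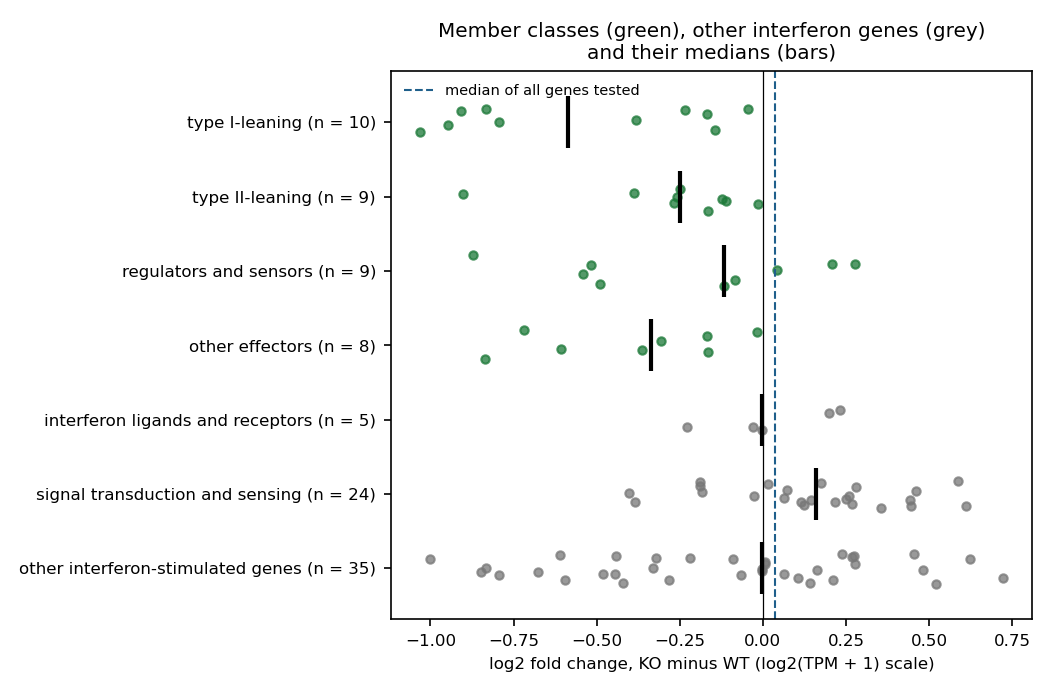
Each point is the log2 fold change (KO minus WT) of a tested gene, by member class (green) and by list of other interferon pathway genes (grey), with the median of each list (bar) and of all genes tested (dashed line, 0.04). The member classes lie mostly left of 0, with medians from -0.59 to -0.12, while the other lists have medians from 0.00 to 0.16. All values are from the 14 libraries. In the 11 libraries with B-cell transcripts, the median of the further interferon-stimulated genes was -0.20.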

How the data were processed

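RNA was taken from adipose tissue of 14 mice, and libraries were made with an Illumina TruSeq kit, per the labels' protocols. The authors deposited TPM values for 56552 rows, with a column per library and the authors' group means. The submitters' processing notes name Bowtie 0.12.2, mm8 and mm9 without saying what each was for. For the quantifier, annotation release and strand handling, nothing was given in the sources used here. TPM keeps no read numbers, so depth is unknown and error is taken from the variation among libraries of a group.

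Same-name rows were summed. A gene needed 1 TPM in 7 or more libraries, and the 14719 that passed were compared as log2(TPM + 1) by limma-trend (limma 3.58.1, R 4.3.3, robust, 2-sided), with Benjamini-Hochberg adjustment over all of them. Exact permutation tests were 2-sided over 3432 partitions, where 0.000583 is the smallest p possible. Values given as 3 numbers are the lowest, median and highest of 7 libraries, KO first. Scores are mean log2(TPM + 1) over a list. Named are, per class, the 4 members of smallest p and the most abundant, with Cxcl9, Cxcl10, Irf1, Irf7 and Stat2, and the 4 genes of smallest p per pathway list; others appear by value or range. The members and lists were chosen with earlier results of these data known.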

Additional observations from a re-analysis of the deposited data

Results flagged for a closer look

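In 5 of 72 groups of 7 libraries (36 members in 2 groups), 1 library lay far from the rest by Dixon's criterion of gap over range, which by chance would mark about 1 in 20 groups. WT replicate 6 was far above the other WT libraries in Irf7 (161.8 TPM) and Ifit3 (90.04 TPM). WT replicate 4 was far below the others in Igtp (10.8 TPM). KO replicate 7 was far above the other KO-labelled libraries in Ifih1 (9.46 TPM), and KO replicate 6 in Cxcl10 (23.5 TPM).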

How the results depend on the processing

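Limma called 0 members in 25 of 28 alternatives, and more with 3: 9 with array weights (where 823 of 14719 genes were called), 3 with the macrophage score (1043 genes called) and 2 with the B-cell score (29 genes called) as a covariate. Members at an unadjusted p under 0.05 numbered 10 (6.74% of all genes lower at that p), and 8 to 19 with 1 library left out (19 without WT replicate 4, 5.9% of all genes). They numbered 18 in the 11 libraries with B-cell transcripts (7.09%), 17 with the B-cell score (7.34%) and 19 with array weights, where 16.2% of all genes were lower at that p. The causes were not tested. The median log2 fold change stayed below 0 throughout, at -0.39 to -0.23 for all members, -0.79 to -0.41 for type I-leaning and -0.34 to -0.18 for type II-leaning genes with 1 library left out. With 1 library left out, the gap between the classes was -0.49 to -0.12 and 28 to 34 of 36 members had lower values. With genes of a mean of 5 TPM or more, which leaves 6 type I-leaning genes, the gap was -0.60, and with the macrophage score 24 of 36 members had lower values. Bst2 turned to 0.0082 with quantile normalization. Calls over all genes were 3 lower and 0 higher, and 6 lower and 13 higher with quantile normalization, 5 and 3 with median-ratio scaling, and 4 and 2 without mitochondrial genes.

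Replicate numbers 3 to 7 occur in both groups, but the labels tie them to nothing shared, and same-numbered libraries correlated at -0.70 to 0.81 in their deviations, so they were not treated as pairs; 2 of 5 correlated best with their own number. In these 10 libraries, with the replicate block, 7 members were at an unadjusted p under 0.05, against 4.36% of all genes in the lower direction. Without the block it was also 7, against 4.08%. Both fits called 0 members and had 29 of 36 with lower values. The median was -0.46 for type I-leaning and -0.10 for type II-leaning genes. Depth cannot be read from TPM, so no counting limit is given for members near 1 TPM.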
